A study of Homo sapiens with 12 samples.

Results

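NRF1 and NRF3 transgenes were compared directly with each other by RNA sequencing of transfected HEK293T cells, a human embryonic kidney line. The libraries were taken by condition: the comparison uses the 3 NRF1 libraries and the 3 NRF3 libraries, 6 of the 12 libraries of the series, and covers all genes of the deposited table. The other libraries are 3 with empty vector (EV) and 3 with NRF2 carrying the T80D substitution, and they enter here as the background level and through the shared estimate of the spread. All cells were transfected transiently with FuGENE and harvested after 24 h. The NRF1 and NRF3 transgenes were FLAG-tagged at the N-terminus, codon-optimized, carried on a pcDNA3.1 plasmid and truncated, lacking the N-terminal part that targets the natural proteins to the endoplasmic reticulum. The study describes biological triplicates, and the sample titles number the 3 libraries of each condition. Since the cells were sequenced in bulk, a higher share of cells that carried a plasmid and a stronger response in each such cell cannot be told apart.

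NRF1 (gene NFE2L1) and NRF3 (gene NFE2L3) are cap'n'collar basic leucine zipper transcription factors, relatives of NRF2 (gene NFE2L2). Members of the family pair with small MAF proteins and bind antioxidant response elements (AREs) near genes of glutathione synthesis, heme breakdown and detoxification. NRF1 is best known for raising proteasome subunit genes when the proteasome is inhibited, whereas fewer functions have been described for NRF3. The natural NRF1 and NRF3 proteins are held in the endoplasmic reticulum membrane until they are processed and released to the nucleus, a step that truncated forms do not need.

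Total counts were 13700620 to 13810535 per NRF1 library and 13452524 to 13772286 per NRF3 library. Levels are given as CPM, the counts of a gene per 1000000 counts of its library after scaling by the trimmed mean of M values. Across genes, log2 CPM of NRF3 replicate 2 correlated with the 3 NRF1 libraries at 0.9902 to 0.9911. With the other NRF3 libraries it correlated at 0.9846 and 0.9888. NRF3 replicate 1 gave 0.9868 to 0.9911 with the NRF1 libraries and 0.9888 and 0.9902 with the other NRF3 libraries. NRF3 replicate 3 gave 0.9842 to 0.9893 and 0.9846 and 0.9902 in the same order. Cytosolic ribosomal protein genes took 4.84% of counts in NRF3 replicate 2 and 5.96% and 7.01% in NRF3 replicates 1 and 3. In the NRF1 libraries they took 5.33% to 6.0%. The median SD of a gene over 3 libraries was 0.187 on the log2 CPM scale with NRF3 and 0.105 with NRF1. It was 0.0884 with EV and 0.122 with NRF2. The main test shares its estimate of the spread among the 4 conditions, although the NRF3 libraries varied most. Fewer genes passed in fits of the 6 libraries alone or with a variance per condition. Summed HEK293 marker genes reached 714 to 795 CPM with NRF1 and 594 to 778 CPM with NRF3, and leukocyte and hepatocyte markers summed to at most 1.02 CPM. Fibroblast markers summed to 12.3 to 22.1 CPM and muscle markers to 18.5 to 21.8 CPM over these 6 libraries. The muscle sum was nearly all ACTA1 (18.5 to 21.7), with CKM at most 0.291. The fibroblast sum was nearly all COL1A1 and COL3A1, with DCN at most 0.0743. The part of these genes in the results was not tested. Marker values are per 1000000 counts without the scaling by the trimmed mean of M values.

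NRF1 and NRF3 gave a small and lopsided set of differences with all libraries in the fit, though neither trait held without NRF3 replicate 2. When edgeR's quasi-likelihood test was fitted to the 12 libraries together, 60 of 15135 genes tested (0.396%) differed at an adjusted p under 0.05 and are called here. Of these, 53 (0.35%) were higher with NRF3 and 7 (0.0463%) were higher with NRF1. None of the 60 overlapped between the 3 NRF1 and the 3 NRF3 libraries, beside 1922 of all genes tested (12.7%) without overlap. The 60 were selected by a test of the same libraries, so this separation is not separate evidence. At an unadjusted p under 0.05, 1775 genes (11.7%) differed, 1032 (6.82%) higher with NRF3 and 743 (4.91%) higher with NRF1. Most differences were modest: 11 of the 53 genes higher with NRF3 and 1 of the 7 higher with NRF1 exceeded a log2 fold change of 1 in size, and the median over the 53 genes was -0.68. Log2 fold changes are NRF1 minus NRF3 throughout unless EV is named, so a negative value means a higher level with NRF3.

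**Figure D1:**
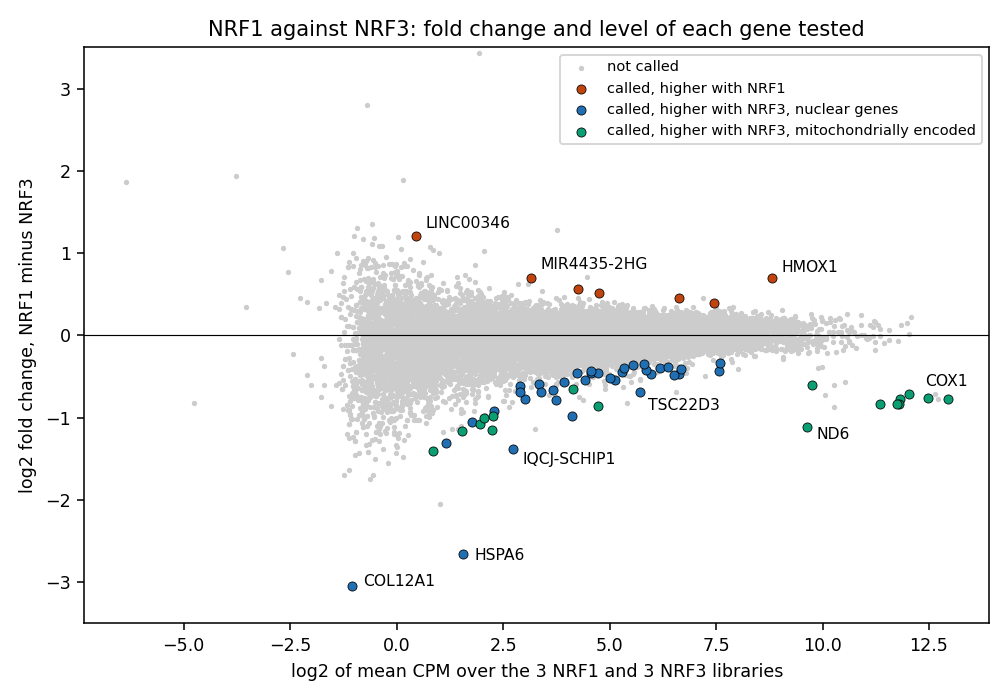
Each point is a gene tested, with the log2 of its mean CPM over the 6 libraries on the x axis and its log2 fold change, NRF1 minus NRF3, on the y axis. The 60 called genes are coloured, and 4 genes beyond 3.5 on the y axis, none of them called, and 2 genes with no count in these libraries are not drawn. The 17 called mitochondrially encoded genes lie below 0 and include the called genes with the highest CPM, which is not corrected for gene length.

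The counts of called genes, and which transgene had more of them, depended on single libraries. Without NRF3 replicate 2 the fit called 705 genes higher with NRF1 and 641 higher with NRF3, and all 60 genes stayed called. Without NRF1 replicate 2 it called 0 and 4 genes (HSPA6, IQCJ-SCHIP1, TSC22D3 and FLRT3), without NRF1 replicate 3 it called 0 and 4 (HSPA6, IQCJ-SCHIP1, TSC22D3 and NRP1), and without NRF3 replicate 1 it called 3 and 5. Leaving out an EV library gave 3 genes higher with NRF1 each time and 13, 13 and 18 higher with NRF3. An EV library acts on this contrast through the shared spread, the scaling and the set of genes tested. Without NRF2 replicate 2 the counts were 3 and 16, without NRF2 replicate 3 they were 4 and 34, and without NRF3 replicate 3 they were 4 and 52. A fit of the 6 libraries alone called 1 gene higher with NRF1 and 4 higher with NRF3. All 60 genes kept their direction in each of these refits that tested them. Because none of the 60 overlapped between the groups, this outcome was close to fixed by the selection and is not separate evidence.

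A pattern of levels ran through the 53 genes higher with NRF3. In 50 of them the NRF3 mean was nearer to the EV mean than the NRF1 mean was, the exceptions being HSPA6, LBH and NEU1. How often this order holds over all genes tested was not counted. Against EV, 42 of the 53 passed the test with NRF1 and 1, HSPA6, passed with NRF3. Over all genes tested, 265 (1.75%) passed with NRF1 against EV and 4 (0.0264%) with NRF3 against EV. The 7 genes higher with NRF1 showed the same order, with all 7 passing against EV with NRF1 and 1, HMOX1, with NRF3. These comparisons with EV share the 3 EV libraries and the transgene libraries with the direct contrast, so the counts describe levels and are not independent of the selection of the genes.

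HMOX1, heme oxygenase 1, which breaks down heme, had the most counts of the genes higher with NRF1. Its level was 474, 582 and 616 CPM in the NRF1 libraries and 351, 378 and 302 CPM in the NRF3 libraries. The lowest NRF1 library lay above the highest NRF3 library. The EV libraries held 57.7, 65.3 and 63.0 CPM of HMOX1, so both transgenes stood well above the background. The direct log2 fold change was 0.70 (SE 0.10, adjusted p = 0.00748), a 1.62-fold higher level with NRF1. Against EV, HMOX1 was higher by 3.17 (SE 0.11) with NRF1 and by 2.47 (SE 0.10) with NRF3 on the log2 scale. The call of HMOX1 held in 10 of 12 fits that each left out 1 library and was lost without NRF1 replicate 2 (adjusted p = 0.0663) or NRF1 replicate 3 (adjusted p = 0.0717).

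GCLM, which encodes the modifier subunit of glutamate-cysteine ligase in glutathione synthesis, did not pass the direct test. It stood at 65.9, 69.4 and 79.7 CPM with NRF1 and 55.1, 54.6 and 57.8 CPM with NRF3, over 33.0 to 40.1 CPM with EV. The 2 groups did not overlap, and the log2 fold change was 0.36 (SE 0.085, adjusted p = 0.0926). Against EV both transgenes passed the test for GCLM, with log2 fold changes of 0.95 (adjusted p = 3.4e-05) for NRF1 and 0.59 (adjusted p = 0.0163) for NRF3. SQSTM1, the autophagy receptor p62, was at 178, 191 and 195 CPM with NRF1 and 168, 172 and 152 CPM with NRF3 (log2 fold change 0.20, adjusted p = 0.268). NQO1, a quinone reductase often used as a marker of NRF2, was at 6.54 to 8.21 CPM with NRF1 and 6.76 to 9.98 CPM with NRF3, and these ranges overlap (log2 fold change -0.14, adjusted p = 0.700).

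Of 42 tested genes on the list of ARE and antioxidant genes, HMOX1 alone was called by edgeR's test, and DESeq2 called 2, both higher with NRF1. The list had a median log2 fold change of 0.08, beside -0.01 over all genes tested, and 7 of its genes did not overlap between the groups, all higher with NRF1. Over all genes tested, 808 (5.34%) did not overlap and were higher with NRF1. None of 48 tested proteasome genes was called by edgeR's test or by DESeq2, 3 had an unadjusted p under 0.05 and were higher with NRF1, beside 4.91% of all genes, and the list's median was -0.05. The chaperonin and prefoldin list had 0 called genes of 14 and a median of 0.01, with 0 at an unadjusted p under 0.05 and 0 called by DESeq2.

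HSPA6, a stress-inducible member of the HSP70 chaperone family that is nearly silent in unstressed cells, gave the strongest difference in the test and, after the sparsely counted COL12A1, the largest fold change of the called genes. It had 13, 11 and 9 counts in the NRF1 libraries and 68, 77 and 60 counts in the NRF3 libraries, or 0.942, 0.799 and 0.654 CPM against 5.14, 5.60 and 4.54 CPM. The NRF1 libraries lay within the range of the EV libraries, 0.295 to 0.952 CPM, and every NRF3 library lay above all EV and NRF1 libraries. The log2 fold change was -2.66 (SE 0.25, adjusted p = 8.7e-05), a 6.32-fold higher level with NRF3. HSPA6 kept its call in all 12 fits that left out 1 library, with a highest adjusted p of 0.00209. Reads of HSPA6 may be shared with its near-identical copy HSPA7, for which no counts were analysed here, so the value is uncertain to that extent.

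HSPA6 was the 1 gene of 43 called by edgeR's test on the list of heat shock proteins and cochaperones, beside 0.35% of all genes in its direction, and the list's median was 0.04. DESeq2 called 1 gene of the list in each direction. At an unadjusted p under 0.05, 8 of its genes were higher with NRF1 and 3 higher with NRF3, beside 4.91% and 6.82% of all genes. Libraries did not overlap for 8 and 3 genes in the same directions, beside 5.34% and 7.36% of all genes. HSPA1A, the main inducible HSP70, was at 728, 873 and 872 CPM with NRF1 and 1151, 1285 and 808 CPM with NRF3. NRF3 replicate 3 was below 2 of the NRF1 libraries, and the log2 fold change of -0.39 had an adjusted p of 0.287. HSPA1B, whose reads cannot be cleanly separated from those of HSPA1A, gave -0.38 (adjusted p = 0.291).

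Promoter letters are shown for HSPA6 and GCLM because they are a chaperone gene and an ARE gene whose levels stood in opposite order with the 2 transgenes. The sequences are the 250 bases before the gene start from RefSeq on GRCh38.p14, which is a later build than that of the counts. HSPA6 lies at chr1:161524290-161524539 on the plus strand and GCLM at chr1:93909431-93909680 on the minus strand, each written 5′ to 3′ along the gene. Capitals mark matches to heat shock element letters (GAANNTTC or TTCNNGAA), to the ARE letters TGACNNNGC and to the AP-1 letters TGACTCA, all searched on both strands.
HSPA6: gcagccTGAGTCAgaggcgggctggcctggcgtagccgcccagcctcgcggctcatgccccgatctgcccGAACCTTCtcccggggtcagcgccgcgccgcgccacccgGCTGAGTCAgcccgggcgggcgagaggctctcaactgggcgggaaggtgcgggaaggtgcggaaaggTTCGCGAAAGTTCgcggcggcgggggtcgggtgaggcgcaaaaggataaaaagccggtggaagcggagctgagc
GCLM: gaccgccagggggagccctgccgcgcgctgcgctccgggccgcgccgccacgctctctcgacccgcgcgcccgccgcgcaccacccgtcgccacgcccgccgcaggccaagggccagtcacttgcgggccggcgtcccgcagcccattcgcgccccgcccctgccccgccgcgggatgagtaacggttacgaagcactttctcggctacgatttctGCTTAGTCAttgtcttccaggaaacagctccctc

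The HSPA6 promoter held heat shock element letters at 3 places. GAACCTTC begins 180 bases before the gene start, and TTCGCGAA at 74 and GAAAGTTC at 69 bases overlap. It also held an ARE match, GCTGAGTCA at 141 bases, which overlaps an AP-1 match, and another AP-1 match at 244 bases. GCLM held 1 ARE match, GCTTAGTCA, 34 bases before the start, and no match to the other letters printed. Among 27305 promoters of the same length, ARE letters stood in 11%, GAANNTTC in 5.85%, TTCNNGAA in 6.72% and AP-1 letters in 4.16%. Of the 60 called genes, 33 had a promoter in the table, 4 of the higher-with-NRF1 genes (MIR4435-2HG, TUBB6, KRT8 and CNN2) and 29 of the higher-with-NRF3 genes. ARE letters stood in 0 of the 4 and in 5 of the 29 (HSPA6, EPHA7, SMAD6, FENDRR and HOXB-AS3), and HSPA6 was the 1 called gene with TTCNNGAA or AP-1 letters. GAANNTTC stood in 3 called genes, HSPA6, IQCJ-SCHIP1 and HES1. A match is a description of letters in this window.

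**Figure D2:**
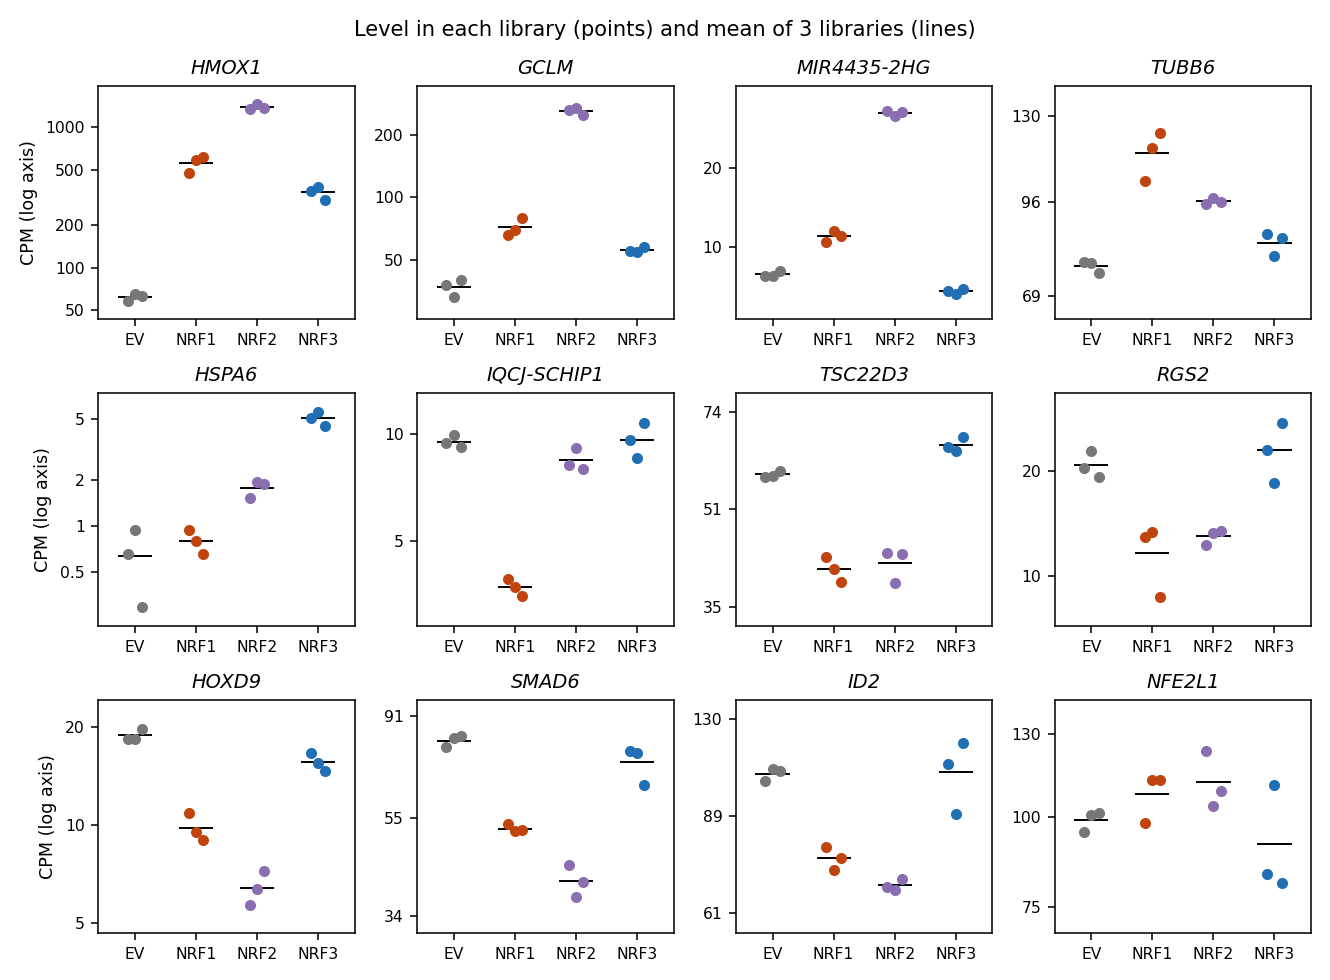
CPM of 12 genes on a log axis in every library (points) of EV, NRF1, NRF2 and NRF3, with the mean of 3 libraries as a line. HMOX1, GCLM, MIR4435-2HG and TUBB6 have their NRF1 points above their NRF3 points, and in HSPA6 the NRF3 points are at 4.54 to 5.60 CPM while all NRF1 points are under 1 CPM.

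The other 6 genes higher with NRF1 were MIR4435-2HG, TUBB6, CNN2, KRT8, TRIB1 and LINC00346. MIR4435-2HG, a long noncoding RNA that hosts a microRNA, stood at 10.4, 11.5 and 11 CPM with NRF1 and 6.80, 6.62 and 6.96 CPM with NRF3. Its groups were tight and separate, and EV lay just above NRF3 at 7.76 to 8.11 CPM (log2 fold change 0.69, SE 0.10, adjusted p = 0.00748). MIR4435-2HG has a near-identical relative, LINC00152, with which reads could be split. TUBB6, a beta tubulin, was at 104, 116 and 123 CPM with NRF1 and 85.9, 79.3 and 84.6 CPM with NRF3 (log2 fold change 0.45, adjusted p = 0.0123).

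The cytoskeletal genes among them changed by less than 1.5-fold in the direct comparison. CNN2, the actin-binding protein calponin 2, gave 28.3, 33.0 and 34.1 CPM against 25.1, 20.8 and 20.9 CPM (0.51, adjusted p = 0.0396). KRT8, an epithelial keratin, gave 20.9, 24.2 and 23.0 CPM with NRF1 and 17.5, 15.2 and 13.4 CPM with NRF3 (0.56, adjusted p = 0.0345). CNN2 and KRT8 have processed copies elsewhere in the genome, and how reads were shared with these is not given in the sources used here. Of 12 fits that left out 1 library, CNN2 kept its call in 3 and KRT8 in 5. TRIB1 and LINC00346, given next, kept theirs in 4 and 3. TRIB1, a pseudokinase that brings a ubiquitin ligase to its targets, was at 183, 206 and 209 CPM with NRF1 and 154, 164 and 137 CPM with NRF3 (0.39, adjusted p = 0.0391). LINC00346, a long noncoding RNA outside the rule for named genes and named after its values were seen, rested on 23, 28 and 28 counts against 13, 11 and 9 (1.21, adjusted p = 0.0411).

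Mitochondrially encoded transcripts were the largest group of called genes. All 36 tested genes of this genome had a lower fitted level with NRF1 than with NRF3, with log2 fold changes from -1.42 to -0.36 and a median of -0.78. Of these 36, 17 were called, all higher with NRF3, against 53 of 15135 (0.35%) over all genes. The libraries did not overlap for 35 of 36, all higher with NRF3, while 7.36% of all genes tested had that pattern. The transcripts come from long precursors and share their template, so they are not 36 separate measurements. As a median over the same genes, the log2 fold change from EV was -0.77 with NRF1 and 0.04 with NRF3.

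These genes took 5.06%, 3.77% and 3.44% of counts in the NRF1 libraries and 7.89%, 6.60% and 6.04% in the NRF3 libraries. Each NRF3 library exceeded each NRF1 library. The EV libraries gave 7.06%, 6.23% and 7.53%, and the NRF2 libraries 3.44%, 3.99% and 4.56%, so the NRF1 range overlapped that of NRF2 and the NRF3 range that of EV. The difference of -2.75 percentage points had a two-sided exact permutation p of 0.10, the smallest that 3 against 3 libraries allow. A higher number of mitochondrial genomes and more RNA from each cannot be told apart by these counts.

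Both ribosomal RNAs, the protein-coding transcripts and the transfer RNAs moved in the same direction. RNR2, the large mitochondrial ribosomal RNA, was at 3813, 3039 and 2661 CPM with NRF1 and 6026, 5043 and 4587 CPM with NRF3 (log2 fold change -0.72, SE 0.13, adjusted p = 0.0354). RNR1, the small one, gave 786, 656 and 600 CPM against 1163, 941 and 992 CPM (-0.60, adjusted p = 0.0303). All 13 protein-coding genes were separate between the groups, with log2 fold changes from -1.12 to -0.61, and 7 were called.

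Complex I, which holds 7 of the 13 protein-coding genes, supplied 4 of the 7 called ones, ND1, ND2, ND5 and ND6. ND6, the 1 protein-coding gene of the light strand, showed the largest difference of the 13. Its level was 632, 484 and 395 CPM with NRF1 and 1065, 1150 and 1062 CPM with NRF3, with EV between them at 825 to 948 CPM (-1.12, SE 0.19, adjusted p = 0.0340). COX1, the catalytic subunit of complex IV, had the most counts of the 13, at 7173, 5268 and 5002 CPM against 11582, 9557 and 8752 CPM (-0.78, adjusted p = 0.0354). COX2, another complex IV subunit (-0.77, adjusted p = 0.0415) and CYTB of complex III (-0.77, adjusted p = 0.0354) were also called. RNR2, COX2 and CYTB fall outside the rule for named genes. ATP6 and ATP8 of complex V, which overlap each other as ND4 and ND4L do, gave -0.73 and -0.87 with adjusted p of 0.0557 and 0.166.

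The transfer RNAs were covered thinly. Of 21 tested, 8 were called and 20 did not overlap, with a median of -0.80. TRNY, the tyrosine transfer RNA, was at 22.6, 18.0 and 15.6 CPM with NRF1 and 38.9, 28 and 34.9 CPM with NRF3 (-0.85, SE 0.13, adjusted p = 0.0123). TRNS2 rested on 12, 15 and 14 counts against 40, 31 and 35 (-1.40, adjusted p = 0.0134). Genes of the heavy strand had a median of -0.78 over 27 and genes of the light strand -0.75 over 9.

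**Figure D3:**
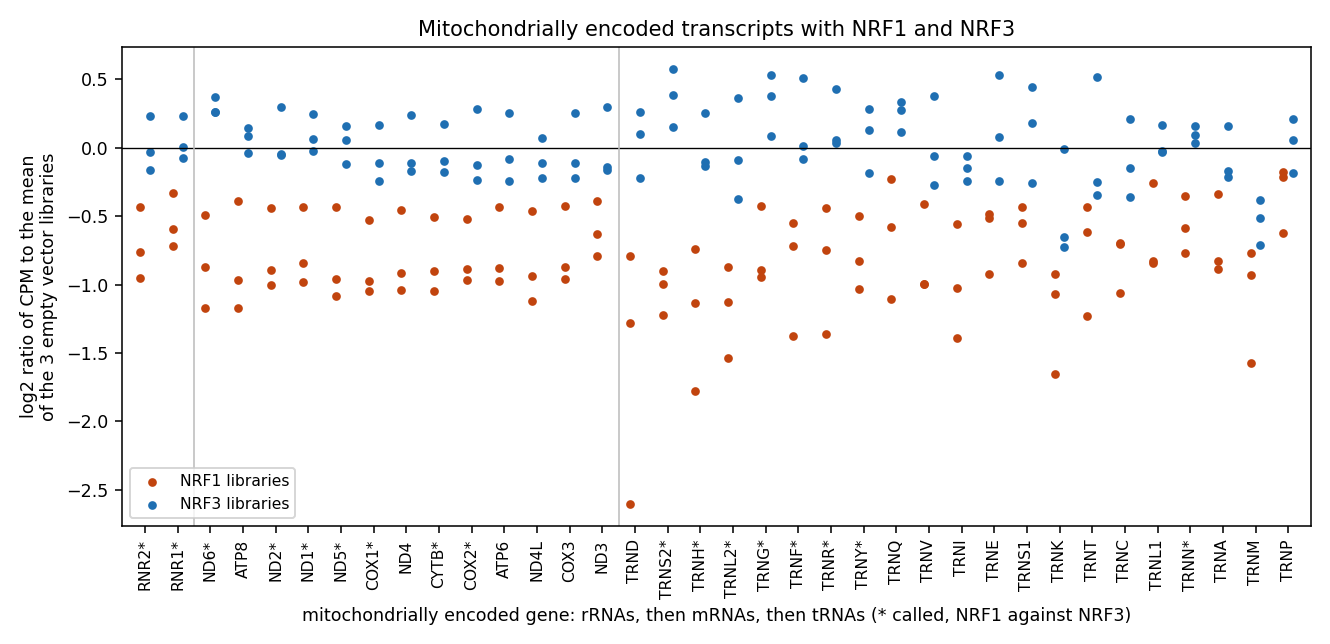
Log2 ratio of CPM in each NRF1 and NRF3 library to the mean of the 3 EV libraries, for each of the 36 mitochondrially encoded genes tested, ordered as rRNAs, mRNAs and tRNAs. NRF1 points lie below 0 for all 36 genes, and for 35 of them all NRF1 points lie below all NRF3 points.

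The number of called mitochondrial genes was set by single libraries. It was 26 without NRF3 replicate 2 and 0 without NRF1 replicate 2, without NRF1 replicate 3 or without NRF3 replicate 1. It was 3, 3 and 5 without an EV library, 3 without NRF2 replicate 2 and 8 without NRF3 replicate 3. Nuclear genes for oxidative phosphorylation subunits showed a smaller shift: 0 of 78 tested were called by edgeR or DESeq2, 1 in each direction had an unadjusted p under 0.05, and the median was -0.13 with 65 of 78 below 0. Cytosolic ribosomal protein genes gave a like median of -0.14, with 79 of 83 below 0, 0 called by edgeR or DESeq2 and 0 at an unadjusted p under 0.05. Their share of counts ran from 4.84% to 7.01% among the NRF3 libraries, a range that includes all NRF1 libraries.

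HOX genes, which give cells their position along the body axis, were lower with NRF1 than with NRF3 in nearly every fitted value. Of 39 listed genes 36 were tested, and 34 of these had a negative log2 fold change, with a median of -0.31. HOXB6, HOXD9 and HOXC9 were called, 3 of 36 beside 0.35% of all genes, and 21 of 36 had an unadjusted p under 0.05 and were higher with NRF3, beside 6.82% of all genes. In 18 the libraries did not overlap, all higher with NRF3, beside 7.36% of all genes. The number called was 11 without NRF3 replicate 2 and 0 without NRF1 replicate 2, NRF1 replicate 3 or NRF3 replicate 1. Neighbouring genes of a cluster can share transcripts and antisense reads, so they are not independent of each other.

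HOXD9 was at 10.9, 9.52 and 9.01 CPM with NRF1 and 16.6, 15.5 and 14.7 CPM with NRF3. EV was higher than both, at 18.4 to 19.8 CPM, and NRF2 was lowest at 5.67 to 7.23 CPM (direct log2 fold change -0.67, SE 0.11, adjusted p = 0.0186). HOXB6 gave 28.1, 26.1 and 25.7 CPM against 39.0, 39.4 and 36.0 CPM (-0.52, SE 0.079, adjusted p = 0.0123). HOXC9 gave 20.8, 21.4 and 17.9 CPM against 27.6, 26.4 and 27.3 CPM (-0.43, adjusted p = 0.0445). In all 3 genes the EV mean lay above the NRF3 mean. Of 12 fits that left out 1 library, HOXD9 and HOXB6 kept their calls in 9 each and HOXC9 in 1.

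The fitted medians of the 4 clusters were -0.20 over 11 HOXA genes, -0.38 over 9 HOXB genes, -0.31 over 8 HOXC genes and -0.29 over 8 HOXD genes, with 0 HOXA genes called. Genes numbered 1 to 9 had a median of -0.36 over 26, and those numbered 10 to 13 had -0.17 over 10, a contrast that was not tested. HOXA3, at -0.50, was close to the threshold with an adjusted p of 0.0643. HOXD13, the last gene of its cluster, gave a mean of 85.8 CPM with NRF1 and 103 CPM with NRF3 (-0.27, adjusted p = 0.108). Relative to EV the median over the 36 genes was -0.43 with NRF1 and -0.11 with NRF3.

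**Figure D4:**
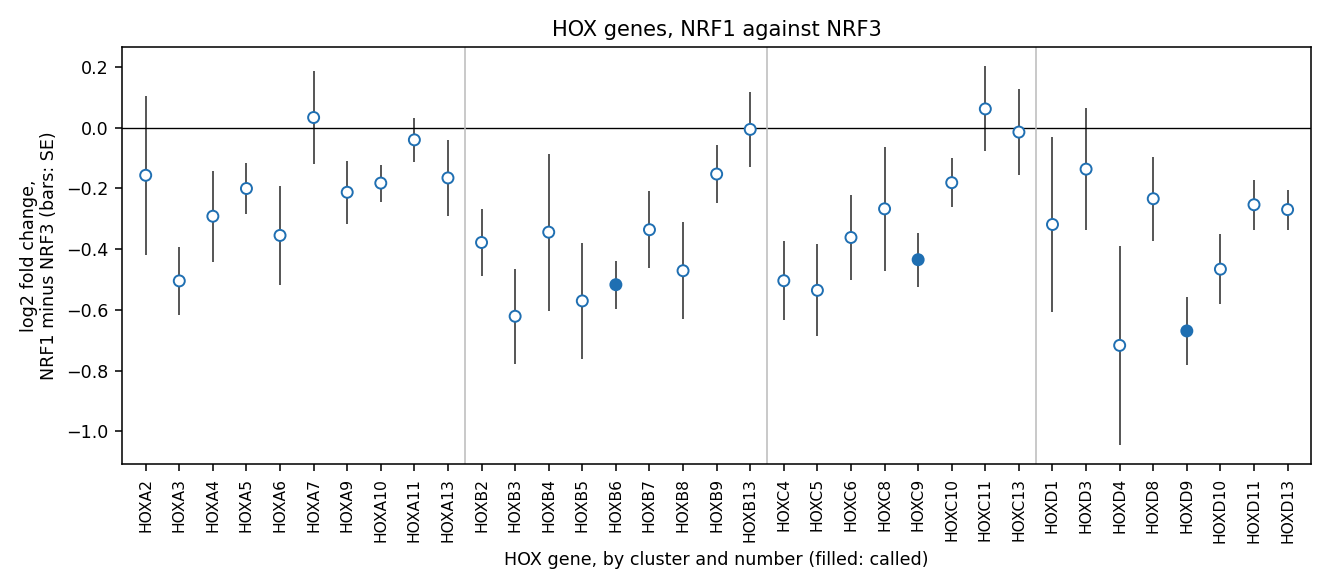
Log2 fold change, NRF1 minus NRF3, of 35 of the 36 HOX genes tested, ordered by cluster and number, with bars for 1 SE and filled points for the 3 called genes. HOXA7 and HOXC11 are the 2 genes above 0.

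Noncoding RNAs of the HOX clusters followed the same direction. Of 13 tested, 11 were below 0, beside 7954 of 15135 over all genes, and the median was -0.47. At an unadjusted p under 0.05, 7 were higher with NRF3, beside 6.82% of all genes. In 6 the libraries did not overlap, all higher with NRF3, beside 7.36% of all genes. HOXB-AS3 was the 1 called, beside 0.35% of all genes in its direction. It stood at 11.9, 12.7 and 12.4 CPM against 20.2, 15 and 19.5 CPM (-0.56, adjusted p = 0.0445). The call of HOXB-AS3 held in 2 of 12 fits that left out 1 library. HOTAIR, a noncoding RNA of the HOXC cluster, gave 9.86, 7.63 and 6.03 CPM against 13.1, 10.1 and 13.1 CPM (-0.62, adjusted p = 0.110). Whether counting used strand is not given in the sources used here, so reads of antisense genes and their partners may be mixed.

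IQCJ-SCHIP1, a readthrough transcript of neighbouring genes, was lower with NRF1 than in every other condition. It had 54, 51 and 48 counts with NRF1 and 127, 118 and 142 counts with NRF3, and EV had 128, 136 and 125. The NRF3 and EV libraries overlapped, and each held more than 2 times the count of any NRF1 library. The log2 fold change was -1.38 (SE 0.13, adjusted p = 8.7e-05), and the call held in all 12 fits that left out 1 library. SCHIP1, which overlaps it, had 205, 201 and 157 counts with NRF1 and 179, 161 and 198 with NRF3 (0.02, adjusted p = 0.95). The deposited counts of both genes are fractions, and how shared reads were assigned was not tested, so the difference of IQCJ-SCHIP1 is uncertain.

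TSC22D3, the glucocorticoid-induced leucine zipper protein, varied little within each condition. It was at 42.3, 40.4 and 38.5 CPM with NRF1 and 64.7, 63.6 and 67.3 CPM with NRF3, with EV at 57.6 to 59.0 CPM (-0.69, SE 0.072, adjusted p = 0.000227). Like HSPA6 and IQCJ-SCHIP1, TSC22D3 kept its call whichever library was left out. It lies outside the rule for named genes and was named after its values were seen. RGS2, which switches off signalling by Gq proteins, gave 12.9, 13.4 and 8.72 CPM against 23.0, 18.5 and 27.6 CPM (-0.98, SE 0.16, adjusted p = 0.0134).

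Of 36 tested genes of bone morphogenetic protein (BMP) and TGF-beta signalling, 2 were called, SMAD6 and ID2, and 12 did not overlap, all higher with NRF3, beside 0.35% and 7.36% of all genes in that direction. The list median was -0.19, and 11 of the 36 lay above 0. SMAD6, an inhibitor of BMP signalling that the pathway itself induces, was at 53.4, 51.6 and 51.8 CPM with NRF1 and 76.5, 76.0 and 64.9 CPM with NRF3 (-0.47, SE 0.080, adjusted p = 0.0206). ID2, an inhibitor of basic helix-loop-helix factors, was at 79.1, 72.1 and 75.5 CPM against 109, 90 and 118 CPM (-0.49, SE 0.086, adjusted p = 0.0260). NRF3 replicate 2 was the lowest NRF3 library for ID2 and still above every NRF1 library. ID1, ID3 and ID4 did not pass, at -0.47, -0.32 and -0.33 with adjusted p of 0.0801, 0.117 and 0.170, and none of them overlapped between the groups.

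The list of cadherins, protocadherins and guidance molecules gave 3 called genes of 54, all higher with NRF3, beside 0.35% of all genes, with a list median of -0.07. Libraries did not overlap for 8 of the 54 that were higher with NRF3 and for 5 that were higher with NRF1, beside 7.36% and 5.34% of all genes. SEMA3C, a secreted semaphorin, was at 6.67, 5.59 and 5.60 CPM with NRF1 and 8.84, 11.6 and 10.1 CPM with NRF3 (-0.77, adjusted p = 0.0185). NRP1, a coreceptor for class 3 semaphorins, was at 26.2, 28.7 and 30.0 CPM against 42.4, 43.2 and 38.6 CPM (-0.55, SE 0.080, adjusted p = 0.00748). EPHA7, an ephrin receptor, gave 74.2, 69.8 and 70.4 CPM against 89.3, 104 and 86.7 CPM (-0.39, adjusted p = 0.0452). The call of EPHA7 held in 2 of 12 fits that left out 1 library. FLRT3, a membrane protein of cell adhesion that is not on this list, gave 9.57, 10.5 and 9.23 CPM against 16.7, 18.5 and 15.3 CPM (-0.79, SE 0.11, adjusted p = 0.00748), and its call held in 11 of 12 fits that left out 1 library.

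The Hedgehog and Notch lists gave 1 called gene each and the immediate early list gave 2, where 0.35% of all genes were called higher with NRF3 and 0.0463% higher with NRF1. DESeq2 called 1 Hedgehog and 2 Notch list genes, all higher with NRF3, and 7 immediate early genes higher with NRF3 and 1 higher with NRF1. GAS1, a Hedgehog coreceptor, was 1 of 17 and stood at 17.0, 18.7 and 16.7 CPM against 27.7, 27.9 and 21.1 CPM (-0.55, adjusted p = 0.0402). HES1, a repressor induced by Notch, was 1 of 52 and stood at 32.2, 32.5 and 34.4 CPM against 49.5, 41.6 and 44.1 CPM (-0.45, adjusted p = 0.0391). Among 35 immediate early genes KLF10, a zinc finger factor induced by TGF-beta, was higher with NRF3 (-0.46, adjusted p = 0.0396), while TRIB1 was higher with NRF1. The calls of GAS1, HES1 and KLF10 each held in 3 of 12 fits that left out 1 library. On the extracellular matrix list COL12A1 was the 1 called gene of 48, DESeq2 called 0, and the median was 0.03. At an unadjusted p under 0.05, 5 of its genes were higher with NRF3 and 3 with NRF1, beside 6.82% and 4.91% of all genes. COL12A1, a collagen, had the largest fitted change of the called genes (-3.05, adjusted p = 0.0445). It rested on very few counts, 2, 1 and 1 with NRF1 and 11, 19 and 5 with NRF3. The pooled ratio was 8.85 (95% exact interval 3.16 to 34.3, counting error only). The call of COL12A1 held in 2 of 12 fits that left out 1 library.

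The remaining called genes higher with NRF3 lie outside the rule for named genes, apart from LOC105378936, and are given because of their calls. LBH, a transcription cofactor, was at 1.81, 2.32 and 2.54 CPM with NRF1 and 4.23, 5.82 and 3.86 CPM with NRF3 (-1.06, adjusted p = 0.0354), and its EV libraries at 2.29 to 3.15 CPM were nearer to NRF1. NEU1, a lysosomal sialidase, was at 83.9, 78.7 and 86.7 CPM against 112, 105 and 129 CPM (-0.47, adjusted p = 0.0217). OSTN, a secreted peptide hormone, rested on 22, 16 and 15 counts against 36, 38 and 54 (-1.31, adjusted p = 0.0335). CDKN2C, an inhibitor of the cyclin-dependent kinases CDK4 and CDK6, gave -0.42, and ISYNA1, which makes inositol phosphate, gave -0.44. MAF, a large MAF transcription factor, gave -0.39 and PNRC1, a nuclear receptor coactivator, -0.40. The rest, from -0.93 to -0.33, were LOC105378936, LOC105369663, AGAP4 (a family of near-identical copies), FENDRR, ANTXR2, HS3ST3A1, NIPBL-AS1, SAMD11, LRIG3, LONRF3 and ADGRL2.

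Small nucleolar and Cajal body RNAs, most of which are cut from introns, gave no call in edgeR's test and 1 with DESeq2. Of 63 tested, 15 had an unadjusted p under 0.05, all higher with NRF3, beside 6.82% of all genes, and the median was -0.48 with 55 below 0. SNORD22 came closest, with 27, 15 and 12 counts against 41, 34 and 44 (-1.18, adjusted p = 0.0690). The table lists 459 such genes, most with too few counts to be tested.

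edgeR's test made no call on the lists of endoplasmic reticulum folding (41 tested), amino acid response (29), cholesterol synthesis (32), p53 targets (26), interferon response (15), splicing factors (56), nucleolar genes (36), mitosis (40), glycolysis (30), histones (22) and cap'n'collar factors with their partners (14). Their medians lay between -0.02 and 0.12. At an unadjusted p under 0.05 these lists, with 341 genes tested, held 28 genes higher with NRF1 and 17 higher with NRF3, where all genes gave 4.91% and 6.82%, and DESeq2 called 1 of their genes, higher with NRF3.

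**Figure D5:**
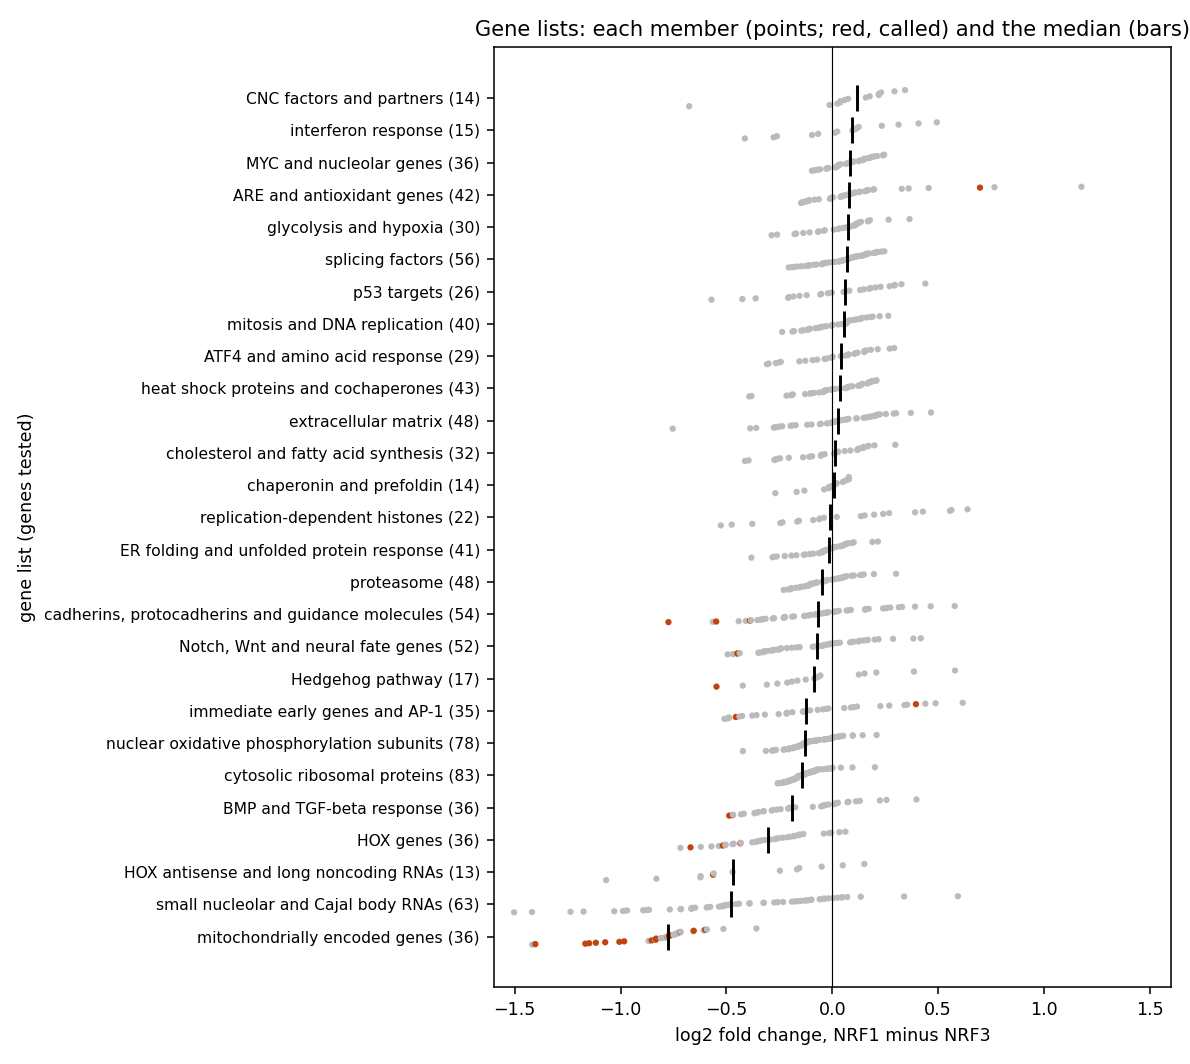
Log2 fold change, NRF1 minus NRF3, of each tested member (points, called ones in red) of 27 gene lists, with the list median as a bar and the number tested in brackets. The mitochondrially encoded genes, at a median of -0.78, lie farthest from 0, and AKR1B10, HSPA6 and COL12A1 lie beyond the axis.

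The genes of the transfected factors did not separate the groups. NFE2L1 was at 98.1, 113 and 112 CPM with NRF1 and 83.5, 111 and 81.1 CPM with NRF3, over 95.3 to 101 CPM with EV (log2 fold change 0.23, SE 0.11, adjusted p = 0.419). NFE2L3 was at 39.1, 41.6 and 40.1 CPM with NRF1 and 36.8, 39.3 and 38.4 CPM with NRF3 (0.07, adjusted p = 0.701), and NFE2L2 at 95.5 to 99.4 CPM and 96.2 to 99.6 CPM (-0.01, adjusted p = 0.961). The codon-optimized transgenes differ in sequence from the natural genes, and it was not tested if their reads reached the counts of NFE2L1 and NFE2L3, so these values check no label. GH2, a growth hormone gene, had 0 counts in all 6 libraries and 69, 89 and 62 counts with EV, so no fold between NRF1 and NRF3 is given.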

How the data were processed

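RNA from 12 libraries was sequenced at BGI, and per the labels and the study's methods the authors processed reads with the DNASTAR Lasergene Genomics Suite on GRCh37.p13. The suite's version, counting rules, strand use and annotation were not given in the sources used here. Per gene, the deposited values are estimated counts (38019 genes) with no normalization between libraries, and 0.009 where there is no count (45.8% of values). Of values of at least 0.5, 5.96% were not whole, and counts were rounded. A number stands in place of a symbol for 26 genes. Columns of library values outside the 12 samples numbered 0.

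Genes passing filterByExpr (minimum count 10) were fitted with edgeR 4.0.16 in R 4.3.3 (quasi-likelihood, robust, trimmed mean of M values, 4 conditions), two-sided, with Benjamini-Hochberg adjustment over 15135 genes. The 3 libraries per condition limit precision. Alternatives used DESeq2 1.42.0, limma 3.58.1, other scalings and filters, 6 libraries, a replicate block, the unequal variance test that the study's methods name, and leaving out each library. Python 3.11.15, scipy 1.17.1 and matplotlib 3.10.9 were also used, and the fit was tested on simulated data. The comparison and the 27 gene lists were chosen with earlier results of these data known. Named genes are NFE2L1, NFE2L2, NFE2L3, HMOX1, GCLM, NQO1, HSPA6, GH2, the 15 highest and 15 lowest log2 fold changes of called genes that averaged 50 counts or more and did not overlap, and per list the 4 members of lowest adjusted p. SCHIP1, ID4, HOXA7, HOXC11, HOXD13, AKR1B10, CYTB, COX2, RNR2, ND4, ND4L, ATP6, ATP8 and LINC00152 were added after their values were seen. Promoters came from RefSeq (GRCh38.p14), matched by symbol. The value of 1 gene is not reported here.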

Additional observations from a re-analysis of the deposited data

How the results depend on the processing

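The counts of called genes did not keep their size across the alternatives. All 60 kept their direction in every alternative that tested them, which their lack of overlap between the groups made nearly certain. DESeq2 called 17 genes higher with NRF1 and 113 higher with NRF3, including 6 and 52 of the original calls, and a fit with no filter on low counts called 18 and 107. Fewer genes passed with only 6 libraries in the fit (1 and 4), with a separate variance for each condition in limma voom (2 and 11) and in the unequal variance test on log2 CPM (1 and 0, with 721 genes at an unadjusted p under 0.05). For mitochondrially encoded genes higher with NRF3, DESeq2 called 26, the fit with no filter 13 (9 of the 17 original calls kept), the 6 libraries 1, limma voom 1 and the unequal variance test 0. HOX genes called higher with NRF3 numbered 7 with DESeq2, 7 with no filter, 0 with 6 libraries, 1 with limma voom and 0 with the unequal variance test. Other scalings and a mean count of at least 50 left these counts within 1.5 times.

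Leaving out 1 library at a time gave 0 to 705 genes higher with NRF1, 4 to 641 higher with NRF3, 0 to 26 mitochondrially encoded genes and 0 to 11 HOX genes. The highest values came without NRF3 replicate 2. Without an EV library the counts were 3 and 13, 3 and 13, and 3 and 18. Such a library enters through the shared spread, the scaling and the set of genes tested. The counts were 3 and 16 without NRF2 replicate 2, 4 and 34 without NRF2 replicate 3, and 4 and 52 without NRF3 replicate 3. Where a group kept 2 libraries, their spread was estimated jointly with the full groups. The cause of these shifts was not tested.

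With the replicate number as a block, 2 genes were called higher with NRF1 and 5 higher with NRF3, with 0 mitochondrially encoded genes and 1 HOX gene. Deviations of libraries of the same number correlated at 0.084, 0.0323 and -0.112, and those of different numbers at -0.188 to 0.17. No pairing by number was seen, but 3 libraries per group are too few to exclude it. HSPA6, IQCJ-SCHIP1 and TSC22D3 lost their calls only in the unequal variance test (adjusted p = 0.875). Among genes that did not pass, SCHIP1 ran from -0.064 to 0.14 when 1 library was left out, changing sign without NRF1 replicate 1, NRF1 replicate 2 or NRF3 replicate 2. NQO1 ran from -0.26 to 0.027, changing sign without NRF3 replicate 3. At 13452524 to 13810535 counts per library, genes such as COL12A1 and LINC00346 rested on few counts.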

Other observations

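A few genes had counts that switched between none and many among libraries of the same condition. Over the 15135 genes tested, 10 had a library at 0 and another library of the same condition at 50 counts or more, and 0 of the 10 were called. KTI12 had 99, 0 and 96 counts with NRF1 and 0, 0 and 0 with NRF3. ARPC4-TTLL3, a readthrough transcript, had 130, 129 and 129 counts with NRF1 and 0 in every NRF3 library (adjusted p = 0.369). Its EV libraries held 128, 8 and 0 counts. NBL1 had 0, 182 and 174 counts with NRF1 and 149, 0 and 145 with NRF3. SPATA21 had 1146, 1 and 0 counts with NRF1 and 246, 223 and 210 with NRF3. These genes were named after their values were seen.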
